A study of Mus musculus with 10 samples.

Results

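The 10 genes described here make up the core of de novo lipogenesis in the mouse liver, and they were measured in livers that had lost the histone variant H3.3. They were found by their names in the deposited count table, where all 10 were present among 55421 genes and all 10 were among the 22449 genes tested. The group holds 6 enzymes of fatty acid and glycerolipid synthesis (Acly, Acaca, Acacb, Fasn, Me1 and Gpam), the transcription factors Srebf1 and Mlxipl, and the lipogenic proteins Thrsp and Pnpla3. H3.3 is encoded by H3f3a and H3f3b and is placed in chromatin outside DNA replication. The H3.3 KO group held 4 male mice with floxed H3f3a and H3f3b (fl/fl) that received AAV8 Tbg-Cre, a virus that expresses Cre recombinase from the hepatocyte promoter Tbg. The WT Cre controls were 3 wildtype males given the same virus, and the MCS controls were 3 males with the floxed alleles given AAV8 Tbg-MCS, which carries no Cre. All mice were C57BL/6, were injected retro-orbitally at 6 months of age, and gave their livers 3 weeks later. Whole liver was used, so hepatocytes that the virus missed and all other liver cells were part of every sample.

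De novo lipogenesis turns surplus carbohydrate into fat. ATP citrate lyase (Acly) makes cytosolic acetyl-CoA from citrate, the acetyl-CoA carboxylases (Acaca and Acacb) make malonyl-CoA from it, and fatty acid synthase (Fasn) builds palmitate from malonyl-CoA with NADPH, part of which comes from malic enzyme (Me1). The product of Acaca is cytosolic and feeds Fasn, whereas the product of Acacb sits at the outer mitochondrial membrane, where its malonyl-CoA restrains the import of fatty acids for oxidation. Gpam attaches the first acyl chain to glycerol 3-phosphate at the mitochondrion. Insulin drives the pathway through SREBP1c (from Srebf1), and glucose drives it through ChREBP (from Mlxipl). The genes respond strongly to feeding and to the time of day.

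In H3.3 KO livers, 3 of the 10 genes passed the test against the 6 controls, and they did not go the same way. Acaca rose 1.65-fold, Acacb fell to 0.443 and Me1 to 0.388 of the control level, while Fasn, Acly, Srebf1, Mlxipl, Thrsp, Pnpla3 and Gpam did not pass. The test was the quasi-likelihood test of edgeR with Benjamini-Hochberg adjustment over all genes tested, at an adjusted p under 0.05. With 36.3% of all genes tested past the same threshold, 3 of 10 is near the background of this comparison. Acacb and Me1 were also differentially expressed genes (DEGs, with an absolute log2 fold change over 1 besides), which were 18.7% of all genes tested. In single directions, 1 gene rose beside 19.7% of all genes, and 2 fell beside 16.6%. The median log2 fold change of the 10 genes was -0.10, and that of all genes was -0.003.

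The upstream sequence of the genes is shown for the 3 that passed and, beside them, for Fasn, which carries the synthase step and did not pass. Each window is from RefSeq (GRCm38.p6, the assembly of mm10), runs 5′ to 3′ on the gene's own strand, and covers 250 bases before and 50 bases from an annotated start. Capitals mark a CCAAT box (CCAAT, or ATTGG on the other strand) or a GC box (GGGCGG, or CCGCCC on the other strand). The Acaca window lies at chr11:84195188-84195487 on the plus strand, and its start is 65766 bases inside the GENCODE gene. The Acacb window lies at chr5:114165268-114165567 on the plus strand, 18983 bases inside the gene. The Me1 window lies at chr9:86695865-86696164 and the Fasn window at chr11:120824498-120824797, both on the minus strand and within 39 bases of the 5′ end of the gene.
Acaca: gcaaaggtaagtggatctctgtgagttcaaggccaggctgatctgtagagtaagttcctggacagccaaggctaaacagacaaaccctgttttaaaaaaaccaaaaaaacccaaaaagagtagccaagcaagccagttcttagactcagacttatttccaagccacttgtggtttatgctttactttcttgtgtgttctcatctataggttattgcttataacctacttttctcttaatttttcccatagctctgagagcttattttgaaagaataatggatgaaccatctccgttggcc
Acacb: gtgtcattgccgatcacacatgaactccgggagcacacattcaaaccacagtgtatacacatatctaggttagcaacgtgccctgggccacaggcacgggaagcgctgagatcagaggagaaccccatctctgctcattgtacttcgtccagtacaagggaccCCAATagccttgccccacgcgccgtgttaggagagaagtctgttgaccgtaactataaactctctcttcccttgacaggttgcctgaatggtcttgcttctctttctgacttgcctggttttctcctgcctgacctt
Me1: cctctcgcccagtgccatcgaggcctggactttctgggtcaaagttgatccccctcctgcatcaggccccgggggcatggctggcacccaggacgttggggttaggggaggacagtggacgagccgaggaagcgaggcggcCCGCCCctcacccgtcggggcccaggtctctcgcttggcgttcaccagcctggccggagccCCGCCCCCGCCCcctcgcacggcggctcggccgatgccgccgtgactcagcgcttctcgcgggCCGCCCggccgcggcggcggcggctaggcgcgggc
Fasn: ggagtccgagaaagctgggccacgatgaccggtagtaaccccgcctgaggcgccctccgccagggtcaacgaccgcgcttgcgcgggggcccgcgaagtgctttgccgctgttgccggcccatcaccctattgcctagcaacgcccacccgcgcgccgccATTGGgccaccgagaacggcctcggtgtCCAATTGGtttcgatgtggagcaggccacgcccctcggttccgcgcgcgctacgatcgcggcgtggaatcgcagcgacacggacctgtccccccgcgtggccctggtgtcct

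Letter patterns of 4 kinds were searched on both strands in the 15 RefSeq windows of the 10 genes, and no match of one kind overlapped a match of another. These were CCAAT, the E-box CACGTG, the GC box GGGCGG and the sterol regulatory element TCACNCCAC. CCAAT occurred in at least 1 window of 9 of the 10 genes, Acaca being the exception, against 41.1% of 27025 genes with a window. The only Acaca window has its start 65766 bases inside the gene, so the 5′ end of Acaca was not searched. Counted by window, CCAAT was in 10 of 15, against 37.4% of 32851 windows. GGGCGG occurred for 6 of the 10 genes, against 38.2% of all genes. CACGTG and TCACNCCAC each occurred for 1 gene, Mlxipl, against 8.09% and 1.44% of all genes. In the Fasn window, the CCAAT boxes began 90, 62 and 59 bases before the start, the last pair overlapping on opposite strands, and in the Acacb window the box began 87 bases before it. The Me1 window shown holds 4 GC boxes, and a second Me1 window, 8676 bases inside the gene, holds a CCAAT box. Such matches are letters in these windows and no measure of binding.

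Total counts were between 20862860 and 26096141 in 9 libraries and 14998426 in KO 1, and no gene of the group had fewer than 47 counts in any library. H3f3a stood at 59.9 to 63.7 CPM (counts scaled to the library total, with TMM factors of 0.858 to 1.11) in the controls and at 16 to 19 CPM in H3.3 KO. H3f3b stood at 136 to 204 CPM in the controls and at 39.8 to 56.7 CPM in H3.3 KO. Both targeted genes fell (log2 fold change -1.83 ± 0.0883 SE, adjusted p = 3.5e-08, and -1.66 ± 0.139 SE, adjusted p = 3.62e-06). The genotype field names HIRA in the floxed animals, but Hira did not pass (log2 fold change -0.14 ± 0.138 SE, adjusted p = 0.477). Summed hepatocyte markers (7 genes, of which 4 fell and 3 did not pass) ran from 104048 to 147083 CPM in the controls and from 80473 to 93808 CPM in H3.3 KO. Alb made up most of that sum in every liver. All 6 Kupffer cell markers (163 to 310 and 371 to 793 CPM) and all 6 stellate cell markers (193 to 251 and 380 to 559 CPM) rose. In lymphocytes 3 of 6 markers rose (2.4 to 5.25 and 4.76 to 14.3 CPM), in cholangiocytes 1 of 5 (40.6 to 61.8 and 53.6 to 73.7 CPM) and in endothelial cells 0 of 5 (140 to 183 and 153 to 272 CPM, with 4 at an unadjusted p under 0.05 by edgeR, and 0 called by DESeq2 or voom but 4 with library size only). Adipocytes also express these genes. Of the 6 adipocyte markers only 3 had enough counts to test, and 1 rose. It was Fabp4, at 6.55 to 11.1 CPM in the controls and 9.44 to 18.1 CPM in H3.3 KO. Lep was at 0 in all 10 libraries, Adipoq in 7, and Plin1 and Retn in 6 each. The sum of the markers was 6.71 to 11.3 CPM in the controls and 9.56 to 18.4 CPM in H3.3 KO, and Fabp4 made up most of it in every liver. In whole liver, fewer cells of a type and less RNA per cell cannot be told apart.

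The level of each gene can be compared only per length, and the authors' FPKM values (fragments per kilobase of transcript, scaled for library depth) were used for that. In the controls, Thrsp (310 ± 120 FPKM, SD, n = 6) and Fasn (250 ± 108) stood highest, followed by Me1 (177 ± 70.6), Mlxipl (110 ± 13.8) and Acly (109 ± 40.2). Srebf1 (61.0 ± 23.4) and Gpam (48.0 ± 15.4) came next, then Acacb (16.2 ± 4.19) and Acaca (15.4 ± 2.91), and Pnpla3 was lowest (2.14 ± 1.61). In that order every gene overlapped its next neighbour among the 6 controls, except at the steps from Gpam to Acacb and from Acaca to Pnpla3. The order differed in H3.3 KO: Fasn (333 ± 155 FPKM, SD, n = 4) was first, Me1 ranked 5 at 69.8 ± 47.5, and Acaca (28.2 ± 2.97) stood above Acacb (8.40 ± 3.31).

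**Figure D1:**
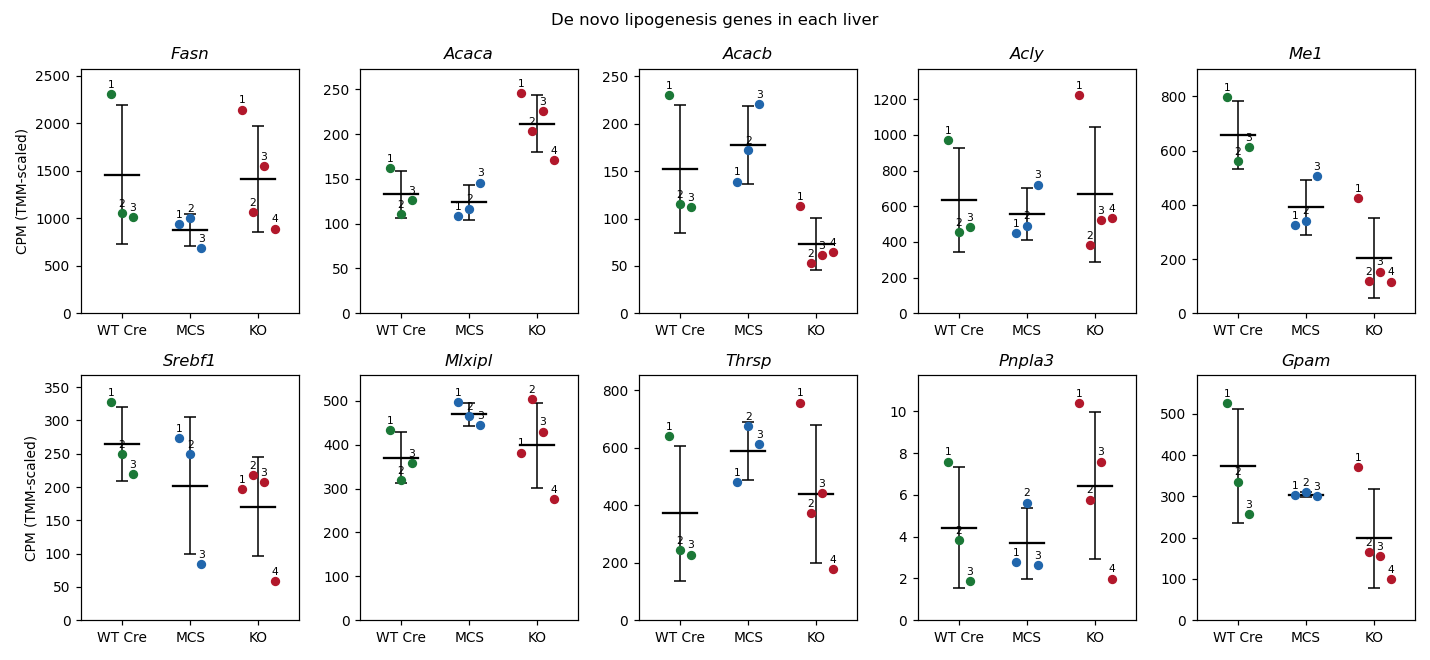
TMM-scaled CPM (linear axis from 0) of the 10 lipogenic genes in each of the 10 livers, by group, with the replicate number beside each point and black bars for the mean ± SD of the group. Only Acaca has all 4 H3.3 KO livers beyond all 6 controls, and KO 1 is the highest KO liver for 8 of the 10 genes.

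Acaca, the cytosolic acetyl-CoA carboxylase that supplies malonyl-CoA to fatty acid synthase, lies at chr11:84129672-84401651 on the plus strand. It stood at 162, 111 and 126 CPM in WT Cre controls 1 to 3 and at 109, 117 and 146 CPM in MCS controls 1 to 3. In H3.3 KO 1 to 4 it stood at 246, 204, 226 and 171 CPM. All 4 KO livers were above all 6 controls, and no other gene of the group separated the groups in this way, beside 24.5% of all genes tested. The log2 fold change was 0.72 ± 0.137 SE (adjusted p = 0.00133), and the KO mean was 165% of the control mean. It was past the threshold against WT Cre controls (0.67 ± 0.166 SE, adjusted p = 0.0105) and against MCS controls (0.77 ± 0.167 SE, adjusted p = 0.00421). The former was past the threshold no longer without WT Cre control 2 (0.55, adjusted p = 0.0584). Against the 6 controls it held under every alternative tried, with log2 fold changes of 0.64 to 0.89. Gm11437 overlaps Acaca on the other strand with 83 to 449 counts, and the strand setting of the counting was not stated.

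Acacb, the carboxylase of the mitochondrial surface, lies at chr5:114146535-114250761 on the plus strand and went the other way. It stood at 230, 115 and 112 CPM in WT Cre controls 1 to 3 and at 139, 172 and 221 CPM in MCS controls 1 to 3. In H3.3 KO 1 to 4 it stood at 113, 53.4, 61.7 and 64.4 CPM. KO 2 to 4 were below all controls, and KO 1 was within the WT Cre controls. Acacb fell, with a log2 fold change of -1.17 ± 0.276 SE (adjusted p = 0.00687). It was -1.06 ± 0.325 SE against WT Cre controls (adjusted p = 0.0354) and -1.28 ± 0.325 SE against MCS controls (adjusted p = 0.0144). Against the 6 controls the adjusted p remained under the threshold in every alternative. With 1 kind of control it did not: without WT Cre control 1 the difference from the WT Cre controls was -0.64 (adjusted p = 0.139), and that call was also lost without KO 2, KO 3 or KO 4 (adjusted p = 0.081, 0.0838 and 0.094). Without MCS control 3 the difference from the MCS controls had an adjusted p of 0.051.

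Set against each other within a liver, the paired carboxylases parted completely. The ratio of Acaca to Acacb counts was 0.705, 0.965 and 1.13 in WT Cre controls 1 to 3, 0.785, 0.679 and 0.661 in MCS controls 1 to 3, and 2.17, 3.81, 3.66 and 2.66 in H3.3 KO 1 to 4. Over the 6 controls it averaged 0.82 ± 0.186 (SD), and over the 4 KO livers 3.08 ± 0.791 (SD). Per length, in FPKM, the ratio was 0.981 ± 0.233 in the controls and 3.61 ± 0.882 in KO. In the controls the transcripts of both genes were thus near the same level per length, and in KO those of Acaca were the more abundant. The ratio was chosen after the values of both genes were seen and is given without a test. It does not depend on library scaling. Such a separation was not particular to this pair. The ratio of Fasn to Acacb counts was 3.1 to 10 in the controls and 13.8 to 25 in KO, although Fasn did not pass. That ratio, too, is given without a test.

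**Figure D2:**
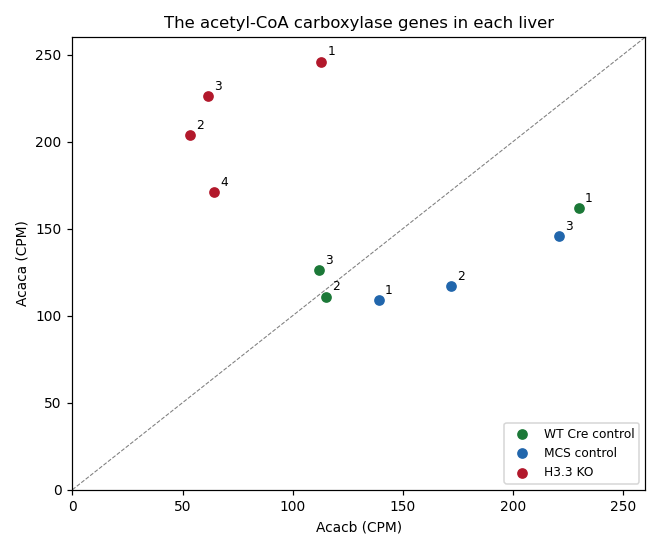
Acaca against Acacb in each liver, both in TMM-scaled CPM on linear axes, with the replicate number beside each point and the dashed line where both are equal. All 4 H3.3 KO livers lie above the line with Acaca at 171 to 246 CPM, and 5 of the 6 controls lie below it.

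Fasn, the multifunctional synthase of palmitate, lies at chr11:120805846-120824547 on the minus strand. It stood at 2303, 1059 and 1009 CPM in WT Cre controls 1 to 3 and at 938, 1005 and 683 CPM in MCS controls 1 to 3. In H3.3 KO 1 to 4 it stood at 2143, 1066, 1546 and 891 CPM. The groups overlapped, with WT Cre control 1 above every KO liver. Fasn did not pass, at a log2 fold change of 0.28 ± 0.341 SE (95% interval -0.39 to 0.94, adjusted p = 0.575). It was -0.046 ± 0.361 SE against WT Cre controls (adjusted p = 0.943) and 0.69 ± 0.367 SE against MCS controls (adjusted p = 0.184).

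Acly, which opens the pathway by splitting citrate, lies at chr11:100476353-100528000 on the minus strand. It stood at 973, 456 and 482 CPM in WT Cre controls 1 to 3, at 452, 492 and 722 CPM in MCS controls 1 to 3, and at 1224, 385, 525 and 534 CPM in H3.3 KO 1 to 4. KO 1 was the highest and KO 2 the lowest of all 10 livers. Acly had a log2 fold change of 0.16 ± 0.337 SE (95% interval -0.50 to 0.82, adjusted p = 0.749), and it was -0.31 (adjusted p = 0.393) without KO 1.

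Me1, the cytosolic malic enzyme that yields NADPH, lies at chr9:86581371-86695953 on the minus strand. It stood at 799, 561 and 612 CPM in WT Cre controls 1 to 3 and at 325, 342 and 508 CPM in MCS controls 1 to 3. In H3.3 KO 1 to 4 it stood at 424, 119, 154 and 117 CPM. KO 2 to 4 were below every control at 22.8%, 29.3% and 22.4% of the control mean, while KO 1 at 80.8% lay among the MCS controls. The log2 fold change was -1.37 ± 0.428 SE (adjusted p = 0.0311). Against WT Cre controls it was -1.69 ± 0.45 SE (adjusted p = 0.0221), with all 4 KO livers below all 3 controls, and against MCS controls -0.95 ± 0.447 SE (adjusted p = 0.142). This call was the least steady of the 3. It was lost without any single WT Cre control (adjusted p = 0.0525, 0.052 and 0.0562 without 1, 2 and 3) and without KO 2, KO 3 or KO 4 (adjusted p = 0.0819, 0.0863 and 0.0933), although the log2 fold change stayed at -1.17 or below in all of these. Without KO 1 it was -2.01 (adjusted p = 0.000442). The call against WT Cre controls was likewise lost without WT Cre control 1 or 3 or KO 3 or 4 (adjusted p = 0.0673, 0.0511, 0.0559 and 0.0562).

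Relative to Fasn in the same liver, Me1 did separate the groups. The ratio of Me1 to Fasn counts was 0.347, 0.529 and 0.607 in WT Cre controls 1 to 3, 0.347, 0.341 and 0.743 in MCS controls 1 to 3, and 0.198, 0.112, 0.0993 and 0.132 in H3.3 KO 1 to 4. It averaged 0.486 ± 0.169 (SD) over the 6 controls and 0.135 ± 0.0438 (SD) over the 4 KO livers. This ratio, too, was chosen after the values were seen and carries no test. KO 1, which had an Me1 level within the controls, also had the highest Fasn level in KO.

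Gpam, the mitochondrial acyltransferase that begins glycerolipid synthesis, lies at chr19:55067268-55127238 on the minus strand. It stood at 527, 336 and 258 CPM in WT Cre controls 1 to 3, at 304, 310 and 300 CPM in MCS controls 1 to 3, and at 371, 166, 156 and 99.1 CPM in H3.3 KO 1 to 4. As for Me1 and Acacb, KO 2 to 4 were below all controls and KO 1 was within them. Gpam did not pass (log2 fold change -0.78 ± 0.34 SE, adjusted p = 0.101), and without KO 1 it did (-1.27, adjusted p = 0.00169).

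Srebf1, which encodes the insulin-responsive SREBP1 factors, lies at chr11:60199089-60222581 on the minus strand. It stood at 327, 249 and 219 CPM in WT Cre controls 1 to 3, at 273, 249 and 83.7 CPM in MCS controls 1 to 3, and at 197, 218, 207 and 59.4 CPM in H3.3 KO 1 to 4. MCS control 3 and KO 4 were low, and the other 8 livers spanned 197 to 327 CPM. Srebf1 did not pass, at a log2 fold change of -0.46 ± 0.418 SE (95% interval -1.28 to 0.36, adjusted p = 0.438). Although all 4 KO livers were below the 3 WT Cre controls, that comparison did not pass (-0.64 ± 0.5 SE, adjusted p = 0.387). Rai1 overlaps Srebf1 on the other strand with 154 to 633 counts. The counts are for the whole gene, so the transcripts of SREBP1a and SREBP1c were not separated.

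Mlxipl, which encodes the glucose-responsive factor ChREBP, lies at chr5:135089890-135138382 on the plus strand and was among the steadiest genes of the group. It stood at 433, 319 and 359 CPM in WT Cre controls 1 to 3, at 498, 465 and 445 CPM in MCS controls 1 to 3, and at 382, 505, 430 and 276 CPM in H3.3 KO 1 to 4. The KO livers spanned both kinds of control. The log2 fold change was -0.076 ± 0.169 SE, and its 95% interval of -0.41 to 0.26 was the second narrowest of the group after Acaca (adjusted p = 0.766).

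Thrsp encodes Spot 14, a protein of lipogenic tissues that responds to thyroid hormone and carbohydrate, and lies at chr7:97412938-97417730 on the minus strand. It stood at 641, 244 and 228 CPM in WT Cre controls 1 to 3, at 479, 676 and 611 CPM in MCS controls 1 to 3, and at 757, 374, 443 and 179 CPM in H3.3 KO 1 to 4. KO livers held both the highest and the lowest value of the series, and the log2 fold change was -0.13 ± 0.438 SE (95% interval -0.99 to 0.73, adjusted p = 0.846).

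Pnpla3, a lipid droplet protein and a target of SREBP1c, lies at chr15:84167837-84187236 on the plus strand and was the scarcest gene, with 47 to 182 counts. It stood at 7.59, 3.82 and 1.87 CPM in WT Cre controls 1 to 3, at 2.77, 5.63 and 2.63 CPM in MCS controls 1 to 3, and at 10.4, 5.77, 7.59 and 1.99 CPM in H3.3 KO 1 to 4. The ranges overlapped almost fully. The log2 fold change was 0.65 ± 0.472 SE (95% interval -0.28 to 1.58, adjusted p = 0.32).

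**Figure D3:**
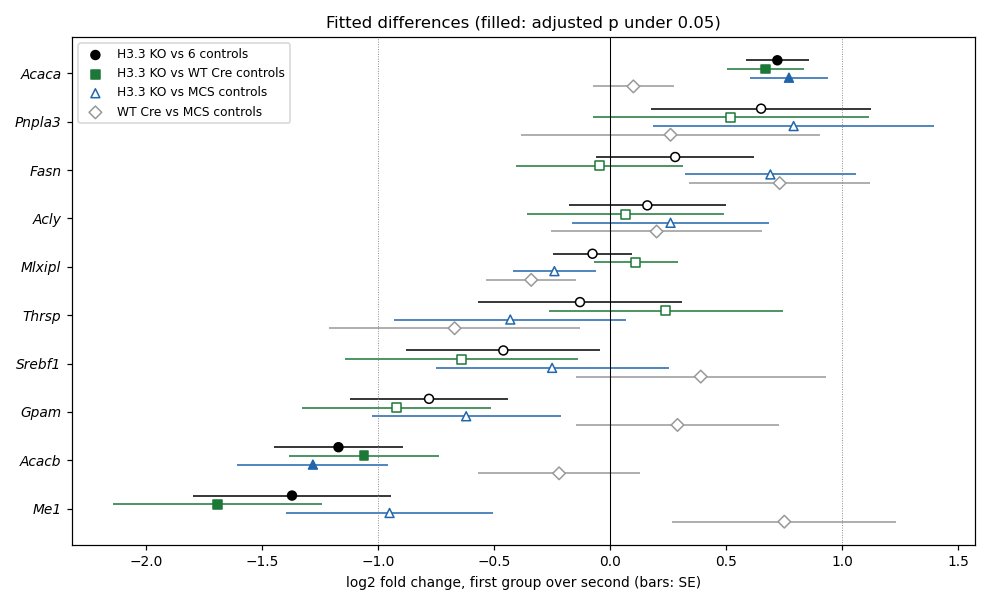
Log2 fold change (points) ± SE (bars) of the 10 genes in 4 comparisons, with filled symbols at an adjusted p under 0.05 and dotted lines at the DEG threshold of 1 either way. Acaca (0.67 to 0.77) and Acacb (-1.28 to -1.06) are filled in all 3 comparisons of H3.3 KO, Me1 in 2, and no gene is filled in WT Cre against MCS controls.

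Taken by kind of control, 3 genes passed against WT Cre controls (Acaca, Acacb and Me1), beside 28.4% of all genes tested, and 2 were DEGs (Acacb and Me1), beside 15.9%. Against MCS controls 2 passed (Acaca and Acacb), beside 32% of all genes, and 1 was a DEG (Acacb), beside 17.5%. Between WT Cre and MCS controls 0 passed by edgeR, beside 0.927% of all genes, and 0 by DESeq2, by voom and in every other alternative. At an unadjusted p under 0.05 there were 0 by edgeR and voom, 1 by DESeq2, 1 with either FPKM pseudocount and 2 with the replicate block. The nearest were Fasn (0.73 ± 0.389 SE higher in WT Cre, adjusted p = 0.557) and Mlxipl (log2 fold change -0.34 ± 0.193 SE, adjusted p = 0.582) by edgeR. Me1 did not pass either, although its values did not overlap, at 561 to 799 CPM in WT Cre and 325 to 508 CPM in MCS controls. The values against a single kind of control share the same 4 KO livers. The difference between a gene's 2 values, one for each kind of control, is its value in the comparison between the controls. The count of DEGs against MCS controls rested on single livers, being 3 without KO 1 and 0 without MCS control 3. Against WT Cre controls it was 0 without WT Cre control 1, KO 3 or KO 4, and 3 without KO 1.

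Most of these genes varied more between livers of the same group than a typical liver gene. The SD of log2 CPM within groups had a median of 0.595 over the 10 genes and of 0.222 over the 13210 genes with a mean of at least 1 CPM. Pnpla3 (0.905), Srebf1 (0.794) and Thrsp (0.73) varied most, above 98.1%, 97.1% and 96.4% of those genes. Acaca (0.241) and Mlxipl (0.273) varied least, above 54.8% and 62.7%. KO 1 was the highest KO liver for 8 of the 10 genes, KO 4 the lowest for 8, and WT Cre control 1 the highest control for 8. The lowest control was less uniform, being WT Cre control 3 for 4 genes, MCS control 1 for 3, MCS control 3 for 2 and WT Cre control 2 for 1. Since the genes were measured in the same livers, these counts are not independent of each other.

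Genes of feeding state and of the clock were examined beside these livers. The clock gene Dbp stood at 84.9, 43.8, 35.1 and 19.0 CPM in KO 1 to 4, at 49.8, 12.3 and 11.1 CPM in WT Cre controls 1 to 3, and at 46.6, 26.8 and 19.7 CPM in MCS controls 1 to 3. KO 1 and WT Cre control 1 were the highest of their groups for Dbp and for most lipogenic genes, but MCS control 1, the highest MCS control for Dbp, was the lowest of the 6 controls for Acaca, Acly and Me1. The fasting-induced Igfbp1 stood at 286 CPM in MCS control 3 and at 24.4 to 52.5 CPM in the other controls, and at 117 CPM in KO 4 and 22.7 to 61.0 CPM in KO 1 to 3. Those 2 livers also had the lowest Srebf1 among the MCS controls and in KO, whereas WT Cre control 3 had both the lowest Srebf1 (219 CPM) and the lowest Igfbp1 (24.4 CPM) of the WT Cre controls. Feeding state and the hour of dissection are not in the labels, and their part in these results was not tested. KO 1 also had the fewest counts and the lowest Kupffer and stellate marker sums in KO (371 and 380 CPM), and the part of this was likewise not tested.

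**Figure D4:**
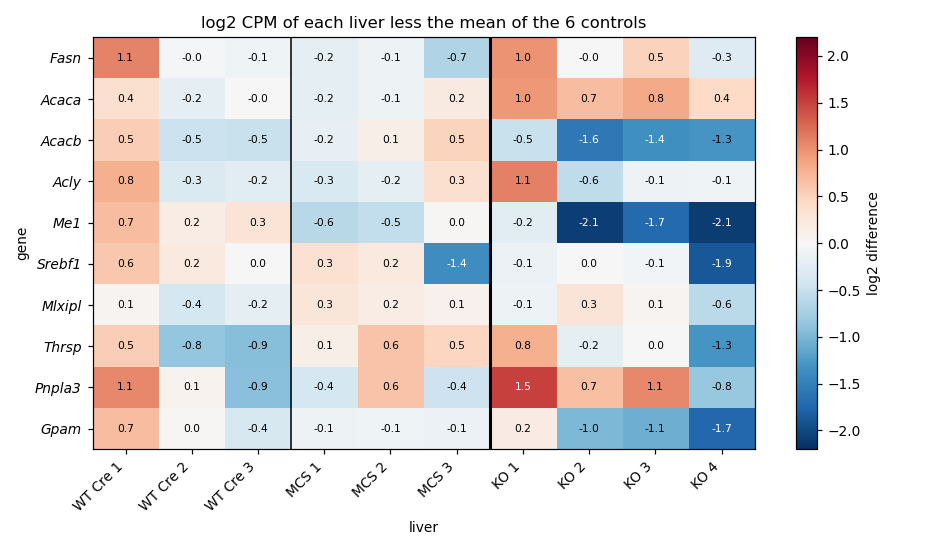
Log2 CPM of each gene (rows) in each liver (columns) less the mean of the 6 controls, with the value in each cell, blue below and red above that mean. In H3.3 KO the rows of Acacb, Me1 and Gpam are blue in KO 2 to 4 and within the range of the controls in KO 1, and the row of Acaca is red in all 4 livers.

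The likeness of profiles was measured as the root mean square difference of log2 CPM over the 10 livers, after each gene's own mean was taken off, among genes with a mean of at least 1 CPM. Within the group, Acacb was nearest to Gpam (0.402) and Me1 to Gpam (0.462), while Fasn was nearest to Acly (0.437). Me1 was the farthest from Fasn (0.988). Outside the group, genes near to Fasn were Lrsam1 (0.293) and Recql4 (0.3). Nearest to Srebf1 were Gnb1l (0.264), Pcsk4 (0.316) and Gm42604 (0.322), and nearest to Mlxipl were Sox6 (0.14), Dennd6b (0.14) and Clk1 (0.142). All points share the same 10 libraries, and the values are a description.

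The genes around the pathway were read from 11 further lists, and a list is given here by its counts among 19.7% higher and 16.6% lower of all genes. Among the 7 genes of SREBP processing, 0 rose and 2 fell. Scap, the escort of SREBP to the Golgi, stood at 78.1 to 158 CPM in the controls and at 63.0, 64.0, 68.4 and 52.3 CPM in H3.3 KO 1 to 4 (log2 fold change -1.03 ± 0.183 SE, adjusted p = 0.000884). Insig2, which retains SCAP in the endoplasmic reticulum, stood at 240 to 402 CPM in the controls and at 158, 147, 180 and 156 CPM in KO (-0.90 ± 0.141 SE, adjusted p = 0.00033). For both, all 4 KO livers were below all 6 controls. The abundant Insig1 (0.18, adjusted p = 0.72) and Srebf2 (0.021, adjusted p = 0.903) did not pass.

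Of 10 ChREBP partners and glucose-responsive genes, 0 rose and 2 fell, and without KO 1 the number past the threshold was 6. Pklr, liver pyruvate kinase, stood at 340 to 631 CPM in the controls and at 287, 122, 139 and 105 CPM in H3.3 KO 1 to 4 (log2 fold change -1.51 ± 0.291 SE, adjusted p = 0.00212). Slc2a2, the glucose transporter GLUT2, stood at 323 to 444 CPM and at 214, 224, 231 and 186 CPM (-0.84 ± 0.122 SE, adjusted p = 0.000207). The groups did not overlap for either gene. Gpd1 (0.27, adjusted p = 0.217) did not pass, and neither did Mlxipl itself.

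The 13 transcription factors known at lipogenic promoters held 2 that rose and 3 that fell, but only 3 were past the threshold without WT Cre control 1 or 3, MCS control 1 or KO 3 and with no filter. Rxra, the partner of LXR, fell in all 4 KO livers below all controls (log2 fold change -0.78 ± 0.103 SE, adjusted p = 9.63e-05). The E-box factors differed in sign, with Usf1 higher (0.52, adjusted p = 0.0013) and Usf2 lower (-0.31, adjusted p = 0.0382). The Usf2 difference was -0.05 (adjusted p = 0.788) with either FPKM pseudocount and -0.14 (adjusted p = 0.411) with library size only, and its call was also lost with the DESeq2 size factors, no filter and the replicate block. Sp1 rose (0.34, adjusted p = 0.029), and the nuclear receptors Nr1h4 (-0.26, adjusted p = 0.157) and Nr1h3 (-0.061, adjusted p = 0.666), which encode FXR and LXR alpha, did not pass. With single livers left out, the calls of Sp1 (adjusted p = 0.0905 without KO 4), Usf2 (0.128 without KO 3) and the Abcg8 call below (0.0737 without KO 4) were lost. Of 6 LXR targets of sterol transport, 4 rose and 2 fell, but only 3 were past the threshold without KO 4 and with the replicate block. Abcg1 (1.48, adjusted p = 9.1e-05) and Lpcat3 (0.52, adjusted p = 0.0111) were higher, while Abcg5 (-0.78, adjusted p = 0.00921) and Abcg8 (-0.71, adjusted p = 0.0257), the canalicular sterol exporter, were lower. Abcg1 is also expressed in macrophages, whose markers rose.

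Supply of acetyl-CoA, citrate and NADPH held 2 genes of 11 that rose and 6 that fell, with a median log2 fold change of -0.56. Within the pentose phosphate pathway, which is the other main source of NADPH beside Me1, the members parted. Pgd, the second NADPH-yielding step, stood at 65.9 to 107 CPM in the controls and at 215, 148, 204 and 221 CPM in H3.3 KO 1 to 4 (1.26 ± 0.146 SE, adjusted p = 4.03e-05). G6pdx, the first step, stood at 7.29 to 31.5 CPM and at 18, 47.1, 55.5 and 68.5 CPM (1.66 ± 0.455 SE, adjusted p = 0.019, and 0.0648 without KO 4). Pgls (-0.78, adjusted p = 0.0014) and Tkt (-0.69, adjusted p = 0.00914), the lactonase and transketolase, were lower. The Tkt call was lost with library size only (-0.53, adjusted p = 0.0502) and with either FPKM pseudocount (adjusted p = 0.145). With the replicate block the G6pdx call was lost (1.43, adjusted p = 0.153). Acss2, which makes acetyl-CoA from acetate, stood at 337, 83.6, 119 and 118 CPM in KO 1 to 4 against 205 to 509 CPM and did not pass (-1.16 ± 0.42 SE, adjusted p = 0.0552), nor did Mdh1 (-0.37, adjusted p = 0.0546). Without KO 1 both passed (-1.78, adjusted p = 0.00113, and -0.54, adjusted p = 0.00152), and Acss2 passed also with DESeq2 (-1.13, adjusted p = 0.00932).

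Downstream of the pathway, 3 of 13 genes of elongation and desaturation rose and 4 fell, and only 4 in all were past the threshold without KO 2, KO 3 or KO 4. Scd2, a stearoyl-CoA desaturase, stood at 8.27 to 18 CPM in the controls and at 1297, 1133, 1437 and 867 CPM in H3.3 KO 1 to 4 (log2 fold change 6.57 ± 0.263 SE, adjusted p = 1.97e-08). The main liver desaturase Scd1 fell (-0.74 ± 0.219 SE, adjusted p = 0.0182, and 0.0739 without KO 2), as did the elongases Elovl3 (-3.75, adjusted p = 6.54e-06) and Elovl5 (-1.14, adjusted p = 0.00146). Elovl2 (0.25, adjusted p = 0.247) and Fads1 (-0.005, adjusted p = 0.984) did not pass. Of 15 genes of glycerolipid assembly, 4 rose and 3 fell, and only 4 in all were past the threshold without MCS control 1, KO 2 or KO 3 and with log2(FPKM + 0.1). Mogat2 (2.75, adjusted p = 0.000242), Agpat4 (0.99, adjusted p = 0.024, and 0.0809 without KO 3) and Agpat1 (0.80, adjusted p = 3.29e-05) were higher and Agpat3 was lower (-0.48, adjusted p = 0.00279). Mogat2 and Agpat4 stayed below 3 CPM in every liver. Dgat2 did not pass (-0.17, adjusted p = 0.32). Lpin1 (-1.86 ± 0.807 SE, adjusted p = 0.105) split the controls instead, at 82.2 to 135 CPM in WT Cre and 419 to 896 CPM in MCS controls (-2.70 ± 0.429 SE, adjusted p = 0.0225), with KO at 69.7 to 184 CPM. Against the 6 controls Lpin1 passed with DESeq2 (-1.84, adjusted p = 0.032) and in the 3-group fit (-1.31, adjusted p = 0.0127).

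Among 11 genes that control acetyl-CoA carboxylase, 2 rose and 1 fell. Those that rose were both beta subunits of the kinase AMPK, Prkab1 (0.50 ± 0.0825 SE, adjusted p = 0.00052) and Prkab2 (0.63 ± 0.167 SE, adjusted p = 0.0101). Mlycd, which breaks down malonyl-CoA, fell (-0.40 ± 0.137 SE, adjusted p = 0.0372, and 0.112 without KO 4). Stk11 (-0.21, adjusted p = 0.141) and Mid1ip1 (0.17, adjusted p = 0.682), whose products activate AMPK and polymerise the carboxylase, did not pass. Phosphorylation of the enzyme is not measured by RNA.

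Of 16 genes of the feeding and fasting response, 0 rose and 9 fell against the 6 controls, with a median of -0.51. Among those that fell were the fasting genes G6pc (log2 fold change -1.71 ± 0.199 SE, adjusted p = 4.09e-05) and Ppargc1a (-1 ± 0.177 SE, adjusted p = 0.000802), together with Fgf21 (-3.49 ± 0.721 SE, adjusted p = 0.0041). Angptl4 (0.26, adjusted p = 0.633) and Insr (-0.24, adjusted p = 0.0626) did not pass. The kinds of control differed in this list. Against WT Cre controls 1 gene rose and 6 fell, beside 3444 and 2939 of all 22449 genes tested. Against MCS controls 2 rose and 9 fell, beside 3880 and 3312 of all genes. Between the controls 1 passed each way, beside 99 of all genes higher and 109 lower in WT Cre. Pdk4 did not pass against the 6 controls, at 17.1 to 26.7 CPM in WT Cre and 3.84 to 8.61 CPM in MCS controls. In H3.3 KO it stood at 25.9 to 36.8 CPM, above all MCS controls but overlapping the WT Cre controls. Of 17 clock genes, 2 rose and 1 fell, and 5 in all were past the threshold without MCS control 1 and with library size only. Those past the threshold in the main test were Ciart (2.24, adjusted p = 0.0215, and 0.0504 without KO 2) and Cry2 (0.72, adjusted p = 0.0273, and 0.0731 without KO 4), both higher, and Nfil3 (-2.02, adjusted p = 0.000463). Tef (0.0022, adjusted p = 0.996) and Nr1d1 (-0.37, adjusted p = 0.408) did not pass. Of 4 genes of the thyroid hormone response 0 passed by edgeR, with 1 at an unadjusted p under 0.05, and 0 by DESeq2 or voom, but 1 passed in the 3-group fit, with the replicate block, and without WT Cre control 3 or KO 4. Klf9 (-0.53, adjusted p = 0.0803) was the gene in the 3-group fit (-0.48, adjusted p = 0.00788) and without WT Cre control 3 (-0.60, adjusted p = 0.0484), and Dio1 stood at -0.16 (adjusted p = 0.574).

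**Figure D5:**
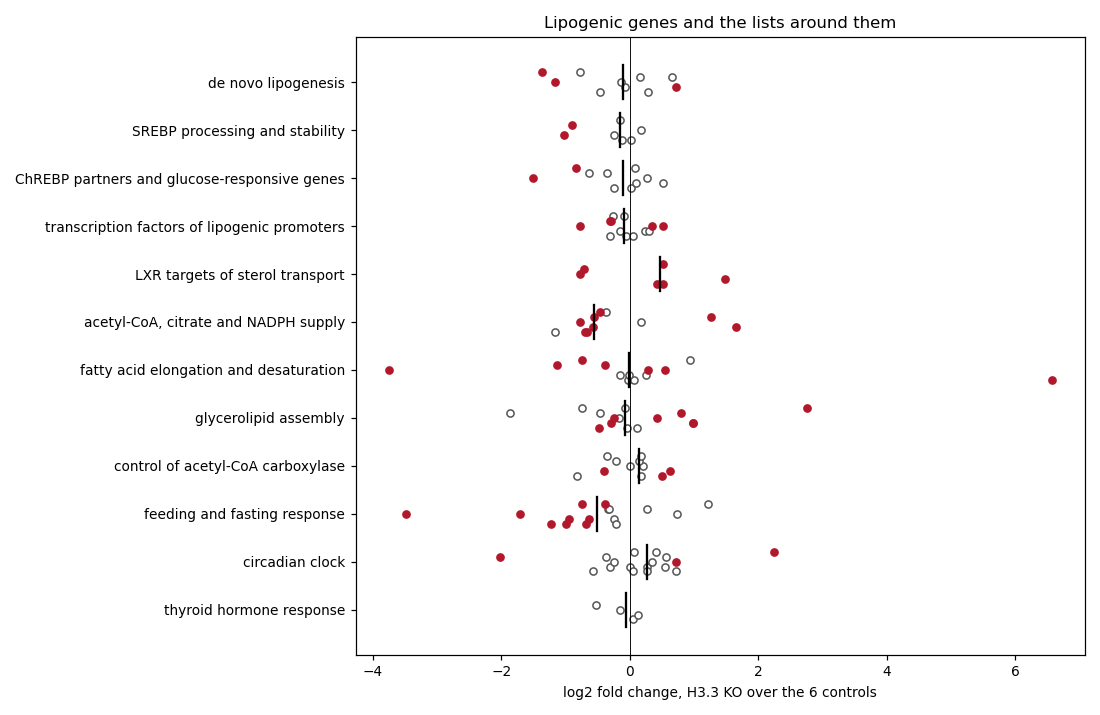
Log2 fold change of H3.3 KO over the 6 controls for the lipogenic genes and for the genes of 11 further lists (1 point a gene, red where the adjusted p was under 0.05, black bar at the median of the list; the vertical scatter within a row has no meaning). The lipogenic genes lie on both sides of 0 with a median of -0.10, and the feeding and fasting genes that passed all lie below 0.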

How the data were processed

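Liver poly(A) RNA of 10 mice was sequenced from directional libraries. Trimmed reads were mapped by the authors to mm10 with STAR and, by the study's methods, counted per gene with HOMER, whereas the submitters' processing notes list HTSeq and Cufflinks. Whether counting used strand, and how multi-mapping reads were treated, was not stated. The deposited counts are whole numbers without normalization, from 14998426 to 26096141 per library. The authors also deposited FPKM values, whose tool is not given in the sources used here. That table had 268042 blank cells, none of them for the 10 genes. Blanks were read as 0, also where a gene had many counts. Lpin1, for example, was blank in MCS controls 1 to 3 (10305, 15361 and 16040 counts) and KO 4 (4810 counts). The fits on FPKM over all genes, with their adjusted p-values and numbers of DEGs, carry these false zeros. KO columns were matched to samples by their number, and control columns 1 to 3 (WT Cre) and 4 to 6 (MCS) by the number in the library names. KO against 6 controls does not rest on that match, but each value against WT Cre or MCS controls alone, and the replicate block, does.

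Genes with at least 10 summed counts were tested in edgeR 4.0.16 (R 4.3.3) by its quasi-likelihood F test, with TMM factors and robust dispersion, two-sided, with Benjamini-Hochberg adjustment over 22449 genes. KO was compared with 6 controls in a fit of 2 groups, and with each kind of control in a fit of 3 groups. SE is the log2 fold change over the square root of F, and 95% intervals are approximate. Levels are CPM on TMM-adjusted library sizes, and log2 CPM used a prior count of 2. The p-values measure the spread between these livers, which the labels number as replicates. No batch or date is in the labels. The alternatives were DESeq2 1.42.0, its size factors in edgeR, library size only, voom (limma 3.58.1), other count filters, limma on log2(FPKM + 1) and log2(FPKM + 0.1), the 3-group fit, a replicate block and each liver left out.

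The script was tested on simulated data. The 10 genes and all lists were chosen with earlier results of these data known. Named beside them were H3f3a, H3f3b and Hira and, in each list, up to 4 genes past the threshold with the largest change and the 2 most abundant that did not pass. For Fasn, Srebf1 and Mlxipl the 3 genes of nearest profile were also named. Some genes that this rule names are not reported here. Dbp, Igfbp1 and Pdk4 were named after their values were seen.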

Additional observations from a re-analysis of the deposited data

Results flagged for a closer look

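Outlying livers were sought on linear CPM in 22 groups of 4 or 6 livers. The gap of the highest or lowest liver to its neighbour was divided by the range of the group. Of these ratios, 4 exceeded Dixon's 95% critical value (0.829 for 4 livers, 0.625 for 6). Chance flags about 1 group in 20 only where values are normally distributed, and the 6 controls pool 2 kinds. A flag on linear CPM need not hold on log2 CPM. Me1 in H3.3 KO had KO 1 far above the others (0.882, at 424 CPM against 117 to 154 CPM). Srebf1 in H3.3 KO had KO 4 far below them (0.868, at 59.4 CPM against 197 to 218 CPM). In the 6 controls, WT Cre control 1 was far above for Fasn (0.768, at 2303 CPM against 683 to 1059 CPM) and for Gpam (0.71, at 527 CPM against 258 to 336 CPM). Without KO 1, the log2 fold change of Me1 was -2.01 (adjusted p = 0.000442, edgeR), and without KO 4 that of Srebf1 was -0.17 in the same test.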

How the results depend on the processing

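Against the 6 controls, 3 of the 10 genes had an adjusted p under 0.05, and this count was 2 to 4 with each liver left out. The number of DEGs was 2 there, but 0 with library size only and 1 with no filter, with log2(FPKM + 1), with log2(FPKM + 0.1) and with the replicate block, and it ranged from 1 to 3 with each liver left out. Against WT Cre controls it was 2, but 0 with no filter and 1 with library size only, log2(FPKM + 1), log2(FPKM + 0.1) and the replicate block, and 0 to 3 with livers left out, while the count at an adjusted p alone was 3, but 1 with no filter, 2 with either FPKM pseudocount and 1 to 4 with livers left out. Acacb was the gene lost with FPKM pseudocounts of 1 and 0.1 (adjusted p = 0.0653 and 0.0646), and it was also lost with no filter (adjusted p = 0.102). Against MCS controls it was 1, but 2 with library size only, voom and log2(FPKM + 0.1), 0 with no filter and log2(FPKM + 1), and 0 to 3 with livers left out, while the count at an adjusted p alone was 2, but 1 with no filter and 1 to 4 with livers left out. Against MCS controls Me1 also passed with voom (adjusted p = 0.0368), and Fasn with the replicate block (adjusted p = 0.0346). Between the controls the count was 0 throughout. The causes were not tested.

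The sign turned only for genes that had not passed (log2 fold changes, with the range over livers left out). Against the 6 controls, Mlxipl was 0.11 with library size only, 0.14 with either FPKM pseudocount, 0.068 with the block and -0.20 to 0.064 (without KO 2 and KO 4) over livers left out, Thrsp was 0.049 with library size only, 0.0071 and 0.007 with FPKM pseudocounts of 1 and 0.1, 0.082 with the block and -0.53 to 0.14 (without KO 1 and KO 4), and Acly was -0.31 to 0.37 (without KO 1 and KO 2). Against WT Cre controls, Fasn was 0.061 with library size only, 0.045 with either FPKM pseudocount, 0.18 with the block, and -0.32 to 0.45 (without KO 1 and WT Cre control 1). Over livers left out, Acly ran from -0.40 to 0.51, Mlxipl from -0.03 to 0.24 and Thrsp from -0.16 to 0.89. Against MCS controls, Mlxipl was 0.0066 with library size only and 0.079 with either pseudocount, Acly -0.21 to 0.50 over livers left out, and Srebf1 0.17 with the block and -0.62 to 0.042 (without MCS control 3 and KO 4). Between the controls, livers left out gave -0.064 to 0.24 for Acaca, -0.24 to 0.43 for Acly, -0.38 to 0.71 for Pnpla3 and -0.037 to 0.51 for Gpam, each lowest without WT Cre control 1.

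Of 9 same-numbered pairs of livers, 1 had a correlation of deviations over 0.1 (range -0.0387 to 0.111), and 5 of 9 livers correlated best with their own number. No chance level was set for that count, so it does not decide whether the numbers pair the livers. The main fits took the livers as unpaired, and the replicate block was an alternative. The last-numbered KO liver shares its number with no control, so the block cannot compare it with a control of its number. Changes with the block can therefore come from a lesser part of that liver as well as from pairing, and these were not told apart. With the replicate block, the adjusted p against the 6 controls was 0.0612 for Me1 (-1.35) and 0.0335 for Gpam (-0.64), against WT Cre controls 0.0799 for Acacb (-1) and 0.0372 for Gpam (-0.73), and against MCS controls 0.0346 for Fasn (0.80).

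Library size only moved the median of all genes by 0.17 against the 6 controls, and Me1 then had an adjusted p of 0.0507. With no filter it was 0.0758. Gpam passed with voom (-0.91, adjusted p = 0.0318), and Me1 passed against MCS controls with voom (-1.15, adjusted p = 0.0368) and without KO 1 (-1.59, adjusted p = 0.000106). Without KO 1, Gpam also passed against WT Cre (-1.41) and MCS controls (-1.12). Over all genes tested, DEGs against the 6 controls numbered 4199, and 1266 with log2(FPKM + 1) and 2843 with log2(FPKM + 0.1), where blank cells were read as 0. With 4 KO livers against the 6 controls and these spreads, the 95% intervals of Fasn, Acly, Srebf1, Thrsp, Pnpla3 and Gpam include changes of 1.5-fold.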
